A study of Mus musculus with 12 samples.

Results

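Chemokines, interleukins and the receptors of interleukins were examined for BMAL1 binding in primary fibroblasts from adult mice (mouse adult fibroblasts, MAFs), either control or senescent. The group was defined by name, as the protein-coding genes of GENCODE M21 whose symbol is Cxcl, Ccl or Il followed directly by a number, together with Lif, Lifr, Osm and Osmr. This gave 121 of the 21864 protein-coding genes with an annotated start site on mm10. A peak of the BMAL1-ChIP-seq was given to the gene whose start site lay nearest to its midpoint, and 196 of 35822 peaks fell to the 121 genes. After peaks of all libraries that overlapped by at least 1 bp were merged, 102 of 16818 regions lay at these genes.

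The MAFs were grown from mouse ears (C57BL/6). Senescent cells had received 20 Gy of X-rays and control cells a sham irradiation. Both groups were kept at 3% O2, treated with 100 nM dexamethasone for 2 hours to synchronize their clocks and collected 12 hours later. There were 3 BMAL1-ChIP-seq libraries of each group, each with its own peak list, and 6 input libraries that were not analysed here. The labels do not say whether replicates came from separate mice or cultures, so the spread between them may be technical. Peak lists show no expression, so the fibroblast identity of the cells could not be checked, but 13 of 13 clock genes known as BMAL1 targets had a peak in all 6 lists. The labels and the study's methods name different suppliers of the BMAL1 antibody.

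BMAL1 pairs with CLOCK and binds the E-box CACGTG, through which it drives the circadian clock. Senescent cells stop dividing and secrete a mixture of cytokines, chemokines and growth factors, the senescence-associated secretory phenotype, whose transcription is known to depend on NF-κB, C/EBP and AP-1 factors. Chemokines attract leukocytes, interleukins carry signals between cells, and many interleukin receptors signal through JAK kinases and STAT factors.

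The regions below were chosen because they lay at genes named by the rule, were called in at least 2 libraries and held an E-box or the AP-1 motif (TGACTCA or TGAGTCA) within 100 bp of the midpoint of their best-ranked peak. They are written 5′ to 3′ on the plus strand of mm10, with the motifs in capitals. The windows are chr5:92360392-92360591 (Cxcl10), chr11:83556490-83556689 (Ccl9), chr5:90890893-90891092 (Cxcl1), chr5:30012773-30012972 (Il6), chr6:117441379-117441578 (Cxcl12), chr11:4299243-4299442 (Lif, nearer region), chr11:44323392-44323591 (Il12b), chr11:4308731-4308930 (Lif, farther region) and chr3:89913197-89913371 (Il6ra, the part upstream of its start).
Cxcl10: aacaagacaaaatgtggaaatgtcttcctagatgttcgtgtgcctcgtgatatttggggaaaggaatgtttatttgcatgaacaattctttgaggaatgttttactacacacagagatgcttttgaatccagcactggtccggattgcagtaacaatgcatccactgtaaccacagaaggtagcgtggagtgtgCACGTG
Ccl9: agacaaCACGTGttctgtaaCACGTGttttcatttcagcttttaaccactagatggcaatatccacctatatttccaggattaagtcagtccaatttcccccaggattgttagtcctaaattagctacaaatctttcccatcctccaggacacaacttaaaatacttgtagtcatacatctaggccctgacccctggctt
Cxcl1: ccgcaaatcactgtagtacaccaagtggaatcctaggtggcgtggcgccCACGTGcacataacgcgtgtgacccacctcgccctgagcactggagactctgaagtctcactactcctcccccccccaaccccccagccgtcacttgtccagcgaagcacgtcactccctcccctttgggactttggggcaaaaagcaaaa
Il6: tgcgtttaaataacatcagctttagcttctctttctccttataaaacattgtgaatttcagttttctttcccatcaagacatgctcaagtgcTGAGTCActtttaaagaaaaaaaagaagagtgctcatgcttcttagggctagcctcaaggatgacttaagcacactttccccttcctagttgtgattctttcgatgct
Cxcl12: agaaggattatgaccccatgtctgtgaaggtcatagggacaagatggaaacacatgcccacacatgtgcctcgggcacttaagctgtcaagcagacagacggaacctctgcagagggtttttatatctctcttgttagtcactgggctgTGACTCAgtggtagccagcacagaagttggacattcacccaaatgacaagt
Lif, nearer region: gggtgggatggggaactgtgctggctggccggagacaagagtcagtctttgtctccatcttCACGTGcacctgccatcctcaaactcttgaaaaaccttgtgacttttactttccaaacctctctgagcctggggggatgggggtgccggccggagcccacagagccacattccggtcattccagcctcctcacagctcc
Il12b: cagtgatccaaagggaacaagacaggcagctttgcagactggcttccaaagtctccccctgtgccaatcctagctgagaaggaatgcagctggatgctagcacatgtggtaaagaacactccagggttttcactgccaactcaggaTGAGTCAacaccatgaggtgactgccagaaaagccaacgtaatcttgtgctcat
Lif, farther region: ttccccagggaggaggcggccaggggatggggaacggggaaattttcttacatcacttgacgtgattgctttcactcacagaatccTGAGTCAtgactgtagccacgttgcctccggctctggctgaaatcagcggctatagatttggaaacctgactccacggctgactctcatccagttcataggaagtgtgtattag
Il6ra: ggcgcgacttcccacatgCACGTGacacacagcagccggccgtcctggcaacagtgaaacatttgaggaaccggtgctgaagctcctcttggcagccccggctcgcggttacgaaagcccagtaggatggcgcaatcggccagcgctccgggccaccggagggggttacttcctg
The E-box of Cxcl10 lay at the very edge of its window, whereas Ccl9 had a pair of E-boxes separated by a few bases. Cxcl1 and Il6ra had an E-box just upstream of their start sites. Il6, Cxcl12 and Il12b had the AP-1 motif, and the nearer window of Lif had an E-box and the farther the AP-1 motif.

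The genes were called about as often as other genes. A peak was found at 10 of the 121 genes in control replicate 1 (8.26%, against 9.32% of all genes), at 10 in control replicate 2 (8.26%, against 10.8%) and at 26 in control replicate 3 (21.5%, against 25.3%). In senescent replicates 1, 2 and 3 there were 17 (14.0%, against 14.4%), 26 (21.5%, against 26.5%) and 20 (16.5%, against 16.6%). The share was thus below that of all genes in each of the 6 libraries. In every library the percentage of all genes lay within the 95% Wilson interval of the members' share, which covers counting error only. The mean was 12.7% ± 7.63 (SD, n = 3) for the control libraries and 17.4% ± 3.79 (SD, n = 3) for the senescent ones, with overlapping ranges. The share followed the length of the list, which ran from 2794 peaks in control replicate 1 to 10601 in control replicate 3 and 9805 in senescent replicate 2.

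In all, 38 of the 121 genes had a peak in any library (31.4%, against 36.3% of all genes) and 83 had none. The 83 included many factors known from the senescent secretome: Il1a and Il1b, the founding interleukins of the IL-1 family, their antagonist Il1rn, the alarmin Il33, Il11 and Osm of the IL-6 family, the receptor Lifr, the neutrophil chemokine Cxcl2, and Cxcl16 and Ccl7. A peak that was not called does not show that BMAL1 was absent, and binding in fewer cells cannot be told apart from weaker binding in all of them. The stretch of genome nearest to a gene's start sites also differed, with a median of 76.0 kb for the 38 genes with a peak and 38.0 kb for the 83 without. It was 45.6 kb for all 121 and 47.3 kb for all protein-coding genes. Per Mb of that stretch the 121 genes had more peaks than all genes in each library. The values ran from 1.38 against 1.23 in control replicate 2 to 5.68 against 3.89 in control replicate 3. Of the 196 peaks, 37 were at Il17b.

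**Figure D1:**
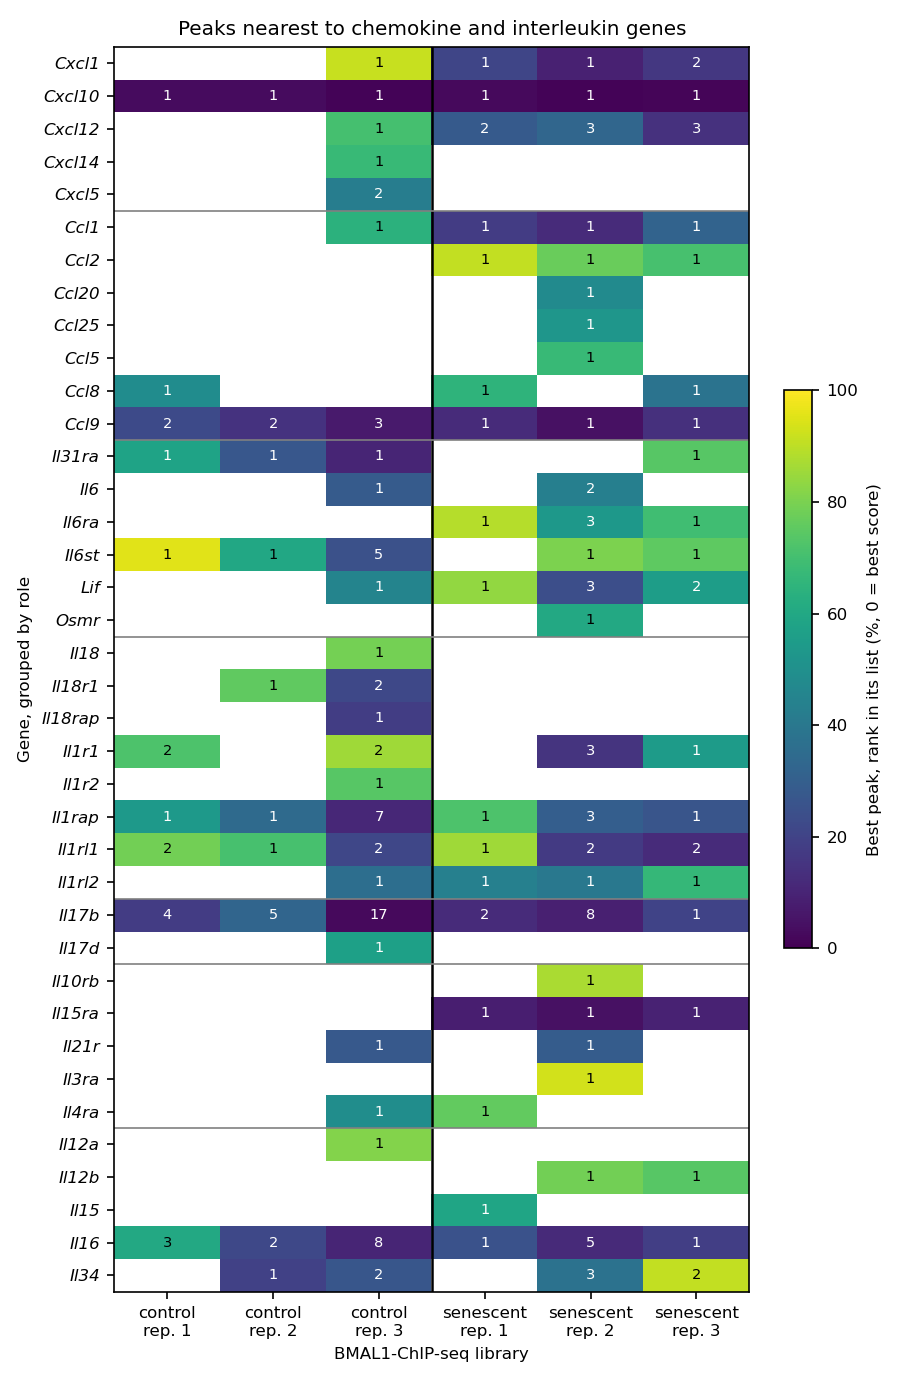
Number of BMAL1 peaks nearest to each of the 38 genes with a peak (rows, grouped by role) in the 6 libraries (columns). Printed numbers count peaks, colour gives the rank of the best peak within its list in percent (0 is the best score), and white cells have no peak. Cxcl10 was within the best 2.97% of all 6 lists, Il15ra was called only in the 3 senescent ones, and control replicate 3 had the most peaks at Il17b, with 17.

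**Figure D2:**
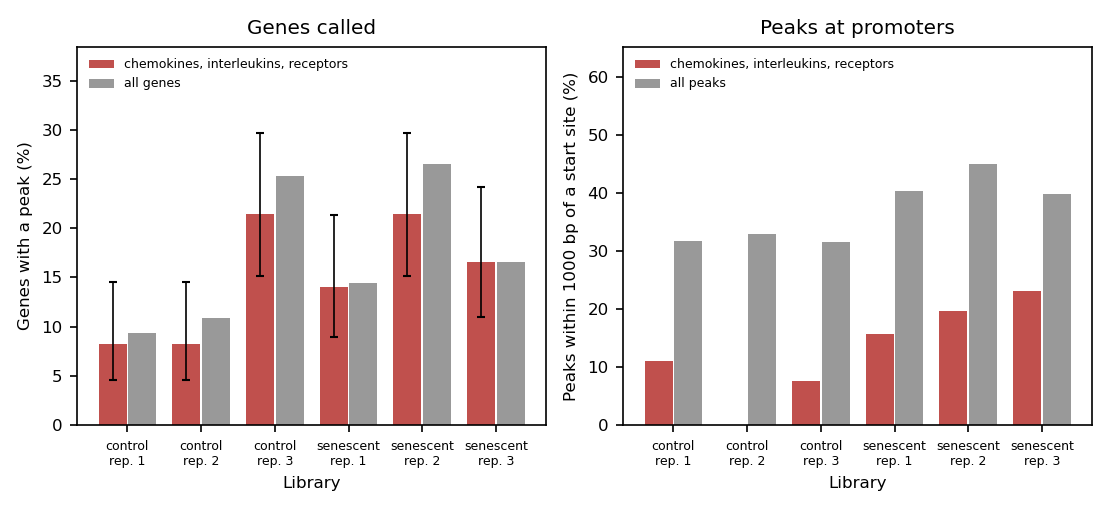
Left, percentage of genes with a peak in each library for the 121 chemokine, interleukin and receptor genes (red, bars with 95% Wilson intervals) and for all genes (grey). Right, percentage of peaks within 1000 bp of a start site, for peaks at the 121 genes and for all peaks, where the red bars were below the grey ones in each library and control replicate 2 had 0 of 16.

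Peaks at these genes were rarely at promoters. In control replicates 1, 2 and 3, 2 of 18 (11.1%), 0 of 16 and 5 of 66 (7.58%) lay within 1000 bp of the start site, and the 0 of 16 allows a share of up to 18.8%. In senescent replicates 1, 2 and 3 there were 3 of 19 (15.8%), 10 of 51 (19.6%) and 6 of 26 (23.1%). The group mean was 6.23% ± 5.68 (SD, n = 3) for the control lists against 19.5% ± 3.65 (SD, n = 3) for the senescent lists, and the ranges did not overlap. Among all peaks the share was 32.1% ± 0.703 and 41.7% ± 2.83 (SD, n = 3) for the same groups, also without overlap, and thus higher in the senescent libraries too. With promoters taken as 3000 bp the member ranges overlapped, at 12.5% to 16.7% in control and 15.8% to 26.9% in senescent libraries. Only 11 of the 121 genes had a promoter peak in any library (9.09%, against 21.7% of all genes), and the 7 with one in at least 2 libraries (5.79%, against 12.8%) were Cxcl1, Il15ra, Il6ra, Il6, Il6st, Il1r1 and Il1rl1. The median distance of a region from the start site was 18.1 kb at these genes and 8.04 kb over all regions.

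Occupancy was then compared between the groups. A gene was taken as senescent-only when called in at least 2 of 3 senescent and 0 of 3 control libraries, and as control-only in the opposite case. There were 4 senescent-only genes (3.31%, against 3.42% of all genes), Ccl2, Il15ra, Il6ra and Il12b, of which the first 3 were called in all 3 senescent libraries (2.48%, against 1.48%), and 0 genes were called in 3 of 3 control and 0 of 3 senescent libraries (against 0.499%). There was 1 control-only gene (0.826%, against 1.64%), Il18r1. Another 6 genes were called in all 6 libraries (4.96%, against 5.14%): Cxcl10, Ccl9, Il16, Il17b, Il1rap and Il1rl1. These shares were near those of all genes. A peak in the best 10% of any list was found at 5 genes (4.13%, against 6.1%): Cxcl10, Cxcl1, Ccl9, Il15ra and Il17b. Without control replicate 3, the longest list, there were 9 senescent-only genes (7.44%, against 7.85% of all genes), Ccl1, Cxcl1, Cxcl12, Il1rl2 and Lif being added. No gene was then control-only (against 0.521% of all genes). With the 2794 best-scoring peaks of each list, the length of the shortest, the senescent-only genes were Cxcl1, Cxcl12, Ccl1 and Il15ra (against 2.59% of all genes) and the control-only genes Il18r1, Il31ra and Il6st (against 2.07%), so that Il15ra and Il18r1 kept their class.

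By region the counts were 10 senescent-only (9.80%, against 9.44% of all regions), 5 control-only (4.90%, against 5.86%) and 4 called in all 6 libraries (3.92%, against 6.58%), whereas 63 were called in 1 library only (61.8%, against 55.7%). Of the 102 regions 6 were in 3 of 3 senescent and 0 of 3 control libraries (5.88%, against 3.73%) and 3 in 3 of 3 control and 0 of 3 senescent libraries (2.94%, against 1.58%). The senescent-only regions lay at Cxcl1, Il15ra, Ccl2, Il6ra, Il12b and Il34 and, with 2 each, at Cxcl12 and Lif. The control-only regions lay at Ccl9, Il16, Il17b, Il18r1 and Il6st. The balance turned at equal list lengths, which left 3 senescent-only regions (Cxcl1, Il15ra and Ccl1) of 37 (8.11%, against 12.5% of all regions) and 9 control-only regions (24.3%, against 11.2%), of which 3 were at Il17b and 1 each at Ccl9, Il16, Il18r1, Il1rap, Il31ra and Il6st. The regions at Cxcl1 and Il15ra were thus the 2 that stayed senescent-only under both settings.

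**Figure D3:**
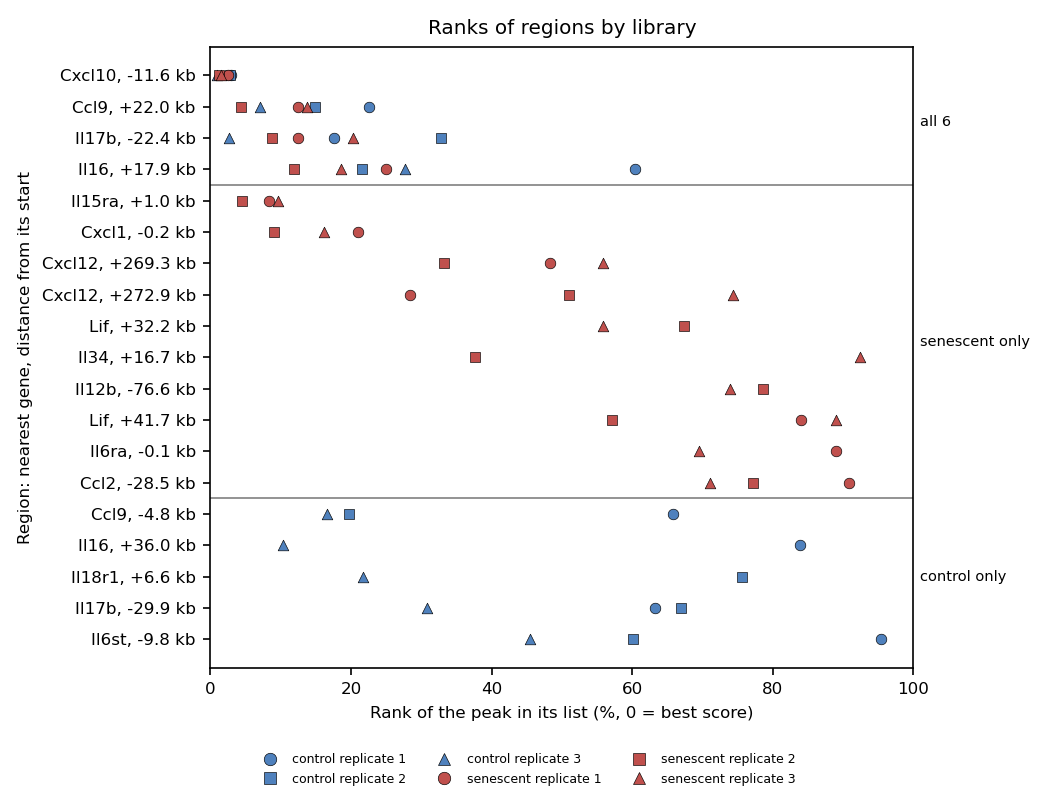
Rank within its list (percent, 0 is the best score) of the 19 regions called in all 6 libraries or in 1 group only, labelled by the nearest gene and the distance from its start site. Blue symbols are control and red symbols senescent libraries, with shape giving the replicate. The regions at Il15ra and Cxcl1 had the best ranks of the senescent-only regions, and the other 8 lay further down their lists.

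The number of peaks at each gene was also tested, as peaks per 1000 peaks of the library, by setting the 3 senescent against the 3 control libraries in a two-sided exact permutation test. Groups without overlap give p = 0.1, the smallest value possible with 3 against 3, and no gene passed correction over the 7947 genes with a peak (exact permutation test, smallest Benjamini-Hochberg adjusted p = 0.726, with 0 genes at an unadjusted p under 0.05). All values of 8 of the 121 genes were higher in senescent libraries (6.61%, against 3.54% of all genes): Cxcl1, Cxcl12, Ccl1, Ccl2, Il15ra, Il6ra, Il1rl2 and Lif. For 4 they were lower (3.31%, against 1.46%): Ccl9, Il16, Il17b and Il6st. Among genes with a peak these were 8 and 4 of 38 (21.1% and 10.5%, against 9.75% and 4.01%), but genes without a peak cannot differ. Each of these 12 genes had p = 0.1 and an adjusted p of 0.726 in the exact permutation test. In all, 1094 genes reached p = 0.1 in this exact test. At Cxcl1, Ccl1 and Il1rl2 control replicate 3 and senescent replicate 2 had 1 peak each. Only the scaling to list length set these apart, at 0.0943 and 0.102 per 1000. Lif likewise had 1 peak in each of control replicate 3 and senescent replicate 1. Il6st also had 1 peak in each of control replicates 1 and 2 and senescent replicates 2 and 3. At Il16 and Il17b senescent replicate 2, with 5 and 8 peaks, had more than control replicates 1 and 2 before scaling. At equal list lengths 3 genes were higher (Cxcl1, Ccl1 and Il15ra, against 1.34% of all genes) and 4 lower (Ccl9, Il17b, Il31ra and Il6st, against 0.992%), so the order of these counts turned.

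Among CXC chemokines, 5 of 12 had a peak in any library (against 36.3% of all genes). Cxcl10, an interferon-induced attractant of T cells, had the strongest region of the whole group (chr5:92360139-92360903). It ranked 83 of 2794, 92.5 of 3349 and 104.5 of 10601 in control replicates 1, 2 and 3, and 105.5 of 4220, 114 of 9805 and 73 of 5053 in senescent replicates 1, 2 and 3. These ranks lie within the best 2.97% of every list and do not set the groups apart. The region lay 11.6 kb upstream of Cxcl10, in an intron of Art3 and within the span of Cxcl11, which the annotation does not class as protein-coding.

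Cxcl1, a chemokine that attracts neutrophils through Cxcr2, had a region 248 bp upstream of its start (chr5:90890727-90891298) that was called in all 3 senescent and in no control library. It ranked 885.5, 892 and 819.5 in senescent replicates 1, 2 and 3, which is the best 21.0%, 9.10% and 16.2% of the lists. The region held 2 E-boxes, of which the one shown above was within 100 bp of the midpoint. A control peak given to Cxcl1, in control replicate 3 at rank 9692, lay 14.5 kb upstream in another region. Peaks per 1000 averaged 0.0314 ± 0.0545 (control) and 0.245 ± 0.147 (senescent), given as mean ± SD of 3 libraries.

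Cxcl12, a chemokine of stromal cells that retains stem cells and leukocytes through Cxcr4, had 5 regions and none near its promoter. The 2 senescent-only regions lay 269 kb (chr6:117437731-117438014) and 273 kb (chr6:117441247-117441686) downstream of the start, in intergenic sequence, and were called in all 3 senescent libraries. The latter held the AP-1 motif. Their ranks were 2035.5, 3254 and 2820 for the former, and 1200.5, 4995 and 3757 for the latter, in senescent replicates 1, 2 and 3. Peaks per 1000 were 0.0314 ± 0.0545 (control) and 0.458 ± 0.145 (senescent), given as mean ± SD of 3 libraries. Such a distance gives no link to Cxcl12 beyond its being the nearest protein-coding start. Cxcl5 had 2 peaks and Cxcl14 had 1, each in control replicate 3 only.

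Of the 23 CC chemokines, 7 had a peak (against 36.3% of all genes). Ccl2, the main attractant of monocytes, had 1 region 28.5 kb upstream (chr11:82006863-82007210), called at ranks 3834.5, 7565 and 3588 of senescent replicates 1, 2 and 3. These ranks stand at 90.9%, 77.2% and 71.0% of the lists, counted from the best score, and the region fell below the cut at equal list lengths. It held neither motif. Ccl1 (chr11:82171625-82172021) ranked higher, at 744.5, 1217.5 and 1615, but was also called in control replicate 3 at rank 6794.5. That region held an E-box and lay beyond the 3′ end of the gene. Ccl8 was called in control replicate 1 (rank 1360) and in senescent replicates 1 and 3 (ranks 2741.5 and 1929). Ccl5, a T cell chemokine, and Ccl20, the ligand of Ccr6, had 1 peak each, in senescent replicate 2 at ranks 6610 and 4676, and Ccl25 also had 1 there.

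Ccl9, a chemokine of the macrophage inflammatory protein group, carried both patterns. Its region 22.0 kb downstream of the start (chr11:83556333-83556807), with the pair of E-boxes, was called in all 6 libraries at ranks 631.5, 496 and 745.5 in control and 524, 422.5 and 695 in senescent replicates 1, 2 and 3. A region 4.78 kb upstream (chr11:83583182-83583669), which held neither motif, was called at ranks 1837.5, 659.5 and 1752.5 of the control libraries and in no senescent one. It was control-only under both settings.

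In the IL-6 family, taken here with IL-31 and its receptor chain, 6 of 14 genes had a peak (against 36.3% of all genes). Most receptors of the family share the subunit gp130, encoded by Il6st, whereas that of IL-31 pairs Il31ra with Osmr. Lif, which acts through Lifr and gp130, had 4 regions, all 32.2 to 42.1 kb downstream of its start. The senescent-only pair consisted of the nearer region (chr11:4299239-4299594, ranks 6610 and 2820 of senescent replicates 2 and 3), which held an AP-1 motif outside the window shown besides its E-box, and the farther region (chr11:4308639-4309050, ranks 3542.5, 5604.5 and 4493 of senescent replicates 1, 2 and 3). Control replicate 3 had a peak of its own next to the farther region (rank 4768), so Lif was not senescent-only as a gene. Peaks per 1000 were 0.0314 ± 0.0545 (control) and 0.313 ± 0.0796 (senescent), given as mean ± SD of 3 libraries. None of the Lif peaks remained senescent-only at equal list lengths.

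Il6ra, the ligand-binding chain of the IL-6 receptor, was called in 3 of 3 senescent and 0 of 3 control libraries, but not in 1 common region. Senescent replicates 1 and 3 had the E-box region at the promoter (chr3:89913111-89913353, ranks 3752.5 and 3511.5), 76 bp upstream of the start. Senescent replicate 2 had 3 other peaks, 2 of them within 1000 bp downstream of the start in the intron and each with an AP-1 motif. Il6 itself, a main cytokine of the senescent secretome, had a promoter region with the AP-1 motif (chr5:30012691-30013054) that was called in 1 library of each group, at rank 3037 of control replicate 3 and 4236.5 of senescent replicate 2. Both are the longest list of their group. Osmr, the receptor chain for oncostatin M, had 1 peak, in senescent replicate 2.

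Il6st and its neighbour Il31ra on chromosome 13 had more peaks in control libraries. Together they had 2, 2 and 6 peaks in control and 0, 1 and 2 in senescent replicates 1, 2 and 3, which is 0.566 to 0.716 per 1000 in control and 0 to 0.396 in senescent libraries. The 2 genes were paired after their values were seen. At Il6st, a region 9.82 kb upstream (chr13:112454110-112454315) was called in 3 of 3 control libraries, at ranks 2664.5, 2014.5 and 4825.5, and in 0 of 3 senescent ones. The promoter of Il6st was called in control replicate 3 and senescent replicate 3. The region in the intron of Il31ra, a receptor chain for IL-31 (chr13:112560595-112561050), ranked 1619, 906.5 and 1108.5 in control replicates and was called in senescent replicate 3 at 3737.5.

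In the IL-1 family, 8 of 20 genes had a peak (against 36.3% of all genes). Of these, 6 are the receptor genes Il1r2, Il1r1, Il1rl2, Il1rl1, Il18r1 and Il18rap, which stand side by side on chromosome 1 (40074079 to 40551705). This cluster had 16 regions, of which 12 were called in 1 library only (against 55.7% of all regions) and 0 in all 6 (against 6.58%). Peak numbers were 4, 2 and 9 in control and 2, 6 and 4 in senescent replicates 1, 2 and 3. At Il1r1, the signalling receptor for IL-1, the promoter (chr1:40224877-40225199) was called in control replicates 1 and 3 and senescent replicates 2 and 3. The best rank was 1458, in senescent replicate 2. Il1rl2, the receptor for IL-36, had 1 region with an AP-1 motif, at rank 3813 of control replicate 3 and 1845.5, 3935.5 and 3370 of senescent replicates 1, 2 and 3. Il1rl1, the receptor for IL-33, was called in all 6 libraries, but its intronic region (chr1:40444679-40445176) was missing from control replicate 2. Il18r1, the IL-18 receptor chain, had its region (chr1:40472418-40472883) in control replicates 2 and 3 at ranks 2533.5 and 2305.5. Without control replicate 2 no gene of the 121 was control-only (against 0.910% of all genes).

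Il1rap, on chromosome 16, encodes the accessory chain shared by several IL-1 family receptors, and was called in all 6 libraries through different regions. Its intronic region 23.0 kb into the gene was called in 3 senescent libraries and control replicate 3, whereas another 87.5 kb into it was called in 3 control libraries and senescent replicate 2. The ranks were 3036, 2913 and 1334 in senescent replicates 1, 2 and 3 at the former, and 1505, 1156.5 and 1191 in control replicates 1, 2 and 3 at the latter. Il18 had 1 peak, in control replicate 3.

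Il17b, a cytokine of the IL-17 family, had the most peaks, 37 in 17 regions on chromosome 18, at 4, 5 and 17 peaks in control and 2, 8 and 1 in senescent replicates 1, 2 and 3. Per 1000 peaks this was 1.51 ± 0.0872 (SD, n = 3) for control and 0.496 ± 0.310 (SD, n = 3) for senescent libraries, without overlap. All 17 regions lay 21.4 to 44.0 kb upstream of its start. Of these, 10 lay within the noncoding gene Carmn and 4 within the noncoding gene Bvht, which the assignment to protein-coding genes leaves out, and 3 in neither. Their strongest region, outside both, was called in all 6 libraries at ranks 493, 1096.5 and 287 in control and 526, 852.5 and 1022.5 in senescent replicates 1, 2 and 3. Il17d had 1 peak, in control replicate 3.

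**Figure D4:**
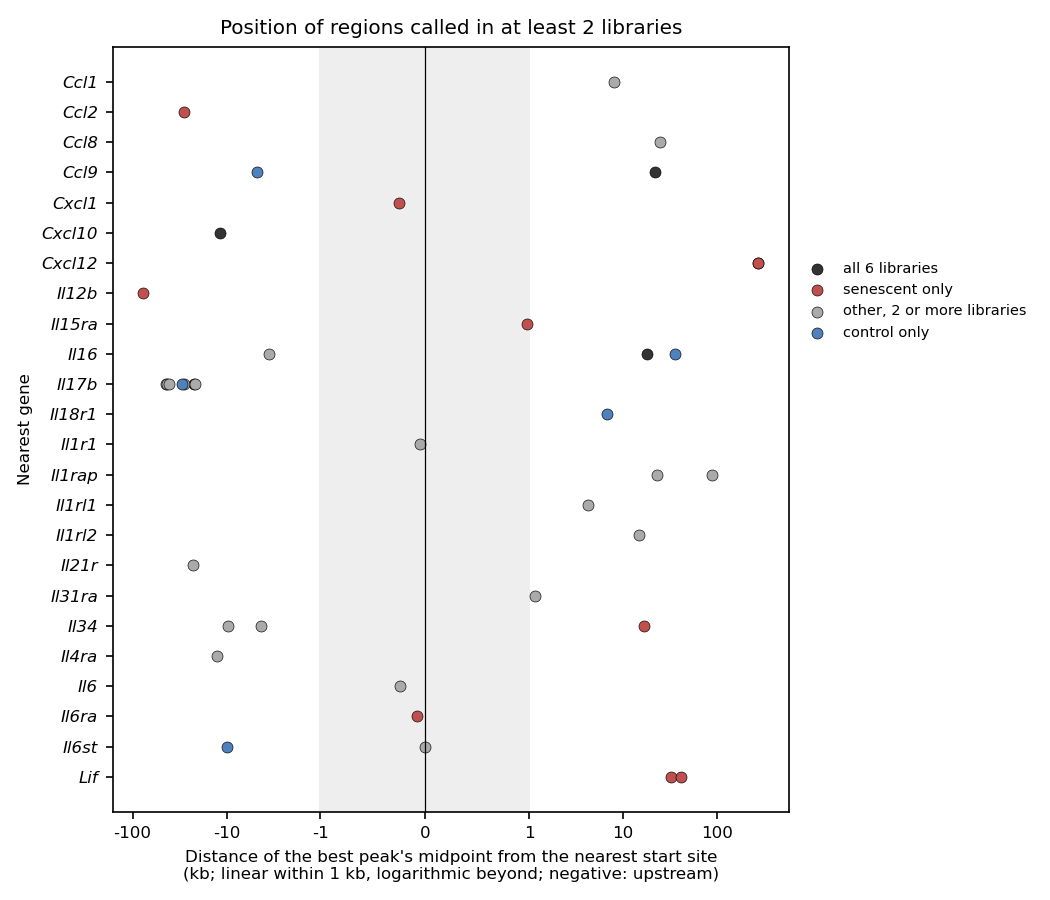
Distance of the best peak's midpoint from the nearest start site (kb, linear within 1 kb and logarithmic beyond, negative values upstream) for the regions called in at least 2 libraries. Black points were called in all 6 libraries, red in senescent only, blue in control only and grey otherwise. The shaded band marks 1000 bp to each side of the start, where no black or blue point lies and the red points are Cxcl1, Il15ra and Il6ra.

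Among the other interleukin receptors 5 of 21 genes had a peak (against 36.3% of all genes). Il15ra, which presents IL-15 to neighbouring cells, had the best-ranked senescent-only region. It was intronic, 974 bp from the nearest start (chr2:11706504-11707087) and ranked 352, 445 and 488.5 in senescent replicates 1, 2 and 3, the best 8.34%, 4.54% and 9.67% of the lists. No control library called it. No E-box was found in it, and an AP-1 motif lay in the region but outside 100 bp of the midpoint. Its peaks per 1000 were 0 in each control library and 0.179 ± 0.0695 (SD, n = 3) in senescent libraries. Il10rb, Il21r, Il3ra and Il4ra had 1 region each, called in 1 or 2 libraries.

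Among the other interleukins 5 of 20 had a peak (against 36.3% of all genes). Il16, a chemoattractant of CD4+ cells, had 10 regions, with 3, 2 and 8 peaks in control and 1, 5 and 1 in senescent replicates 1, 2 and 3. Its intronic region 17.9 kb downstream of the nearest start site (chr7:83717109-83718029) was called in all 6 libraries. The ranks were 1688.5, 720 and 2927.5 in control and 1056, 1160.5 and 936 in senescent replicates. Peaks per 1000 were 0.809 ± 0.243 and 0.315 ± 0.170 (SD, n = 3), which did not overlap, but at equal list lengths Il16 no longer separated the groups. Il12b, a subunit of IL-12 and IL-23, was senescent-only through 1 region with an AP-1 motif 76.6 kb upstream (chr11:44323401-44323597), at ranks 7711.5 and 3737.5 of senescent replicates 2 and 3. Il34, a ligand of the CSF-1 receptor, had 3 regions, of which the one in its intron was senescent-only, at ranks 3696.5 and 4665.5 of senescent replicates 2 and 3. Il15 and Il12a had 1 peak each.

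The E-box was found within 100 bp of the midpoint in 14 of 102 regions at these genes (13.7%, 95% Wilson interval 8.36% to 21.7%), against 16.7% of all regions. The AP-1 motif was found in 17 (16.7%, 10.7% to 25.1%), against 16.5%. Wilson intervals treat regions as independent, but 17 of the 102 lay at Il17b and 10 at Il16, and regions of 1 gene share their source. Of the 10 senescent-only regions 3 had the E-box and 3 the AP-1 motif, against 37.8% and 22.9% of all senescent-only regions. Anywhere in the region, 6 of the 10 held the AP-1 motif (60%, 95% Wilson interval 31.3% to 83.2%), against 28.4% of all senescent-only regions, and the E-box again in 3, against 43.6%. Within 50 bp of the midpoint, 1 of the 10 held the AP-1 motif and 1 the E-box, against 15.3% and 24.6% of all senescent-only regions. Within 100 bp, none of the 5 control-only regions had either, against 8.01% (E-box) and 14.6% (AP-1) of all control-only regions. In the promoters themselves (windows of 300 bases around the start in RefSeq, GRCm38.p6), where 96 of the 121 genes matched by symbol, the AP-1 motif was found at 18 (18.8%, against 5.95% of all genes of that table) and the E-box at 3 (3.13%, against 8.09%), namely Cxcl3, Il1r2 and Il6ra. Il6, Lif, Il11, Il1a, Il1rn and Il15ra were among the 18. A match of these letters is a description and does not show that a factor was bound.

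Related genes outside the group were taken from a list of 72, made up of chemokine receptors, the chemokines Cx3cl1 and Xcl1, components of JAK-STAT signalling and of the IL-1 receptor and NF-κB pathway, and the C/EBP factors Cebpb and Cebpd. They were called more often than the average gene in each library, from 12.5% of the list (against 10.8%) in control replicate 2 to 38.9% (against 26.5%) in senescent replicate 2. All 6 libraries called Cebpb, Socs1, Socs5, Stat3 and Stat6 (6.94%, against 5.14%), of which Stat3 and Socs5 had promoter peaks in all 6. The 6 senescent-only genes (8.33%, against 3.42%) were Jak1, Rela, Irak2, Irak3, Map3k7 and Ackr2, and the 1 control-only gene (1.39%, against 1.64%) was Cxcr1. Irak3, Map3k7 and Ackr2 had no promoter peak, and Map3k7 had a different region in senescent replicates 2 and 3. Peaks per 1000 were higher in every senescent library at 4 listed genes (5.56%, against 3.54%) and lower at 1 (1.39%, against 1.46%). The latter was Tab2, with 4, 3 and 9 peaks in control and 1, 0 and 0 in senescent replicates 1, 2 and 3. Rela, a subunit of NF-κB, had a promoter peak at ranks 1277, 6353.5 and 3090 of senescent replicates 1, 2 and 3. Irak3, an inhibitor of IL-1 receptor signalling, ranked 467, 2024.5 and 468. Stat6, which transmits IL-4 signals, ranked 388.5, 228.5 and 376.5 in control and 150.5, 157 and 171 in senescent replicates 1, 2 and 3. The senescent ranks of Stat6 were all better than its control ranks, but ranks in lists of different length are not on the same scale. As percent of the list they overlapped, at 3.55% to 13.9% in control and 1.60% to 3.57% in senescent libraries.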

How the data were processed

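BMAL1-ChIP-seq peak lists of 3 control and 3 senescent libraries were used. Per the labels and the study's methods, the authors mapped reads to mm10 with BWA, retained a read pair when either end mapped uniquely, marked and dropped duplicates (Picard) and called peaks with MACS2 at a false discovery rate of 1%, for each library on its own. MACS2's version and the use of inputs as its control are not given in the sources used here. The deposited score of a peak was taken as the −log10 of its q-value, since the smallest score of each list lay between 2.02 and 2.12. It depends on depth, which the lists do not give, so only ranks within a list were used, with ties at their mean rank. Each list has 2794 to 10601 peaks.

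Midpoints were assigned to the nearest of 41451 start sites of protein-coding transcripts (GENCODE M21 basic). Peaks overlapping by at least 1 bp were merged into regions. Motifs were searched on both strands of mm10, and sequences of chromosome 18 were not printed. Counts of peaks per 1000 were tested by exact permutation, two-sided, over the 20 arrangements of the libraries, adjusted by Benjamini-Hochberg over 7947 genes. The procedure was tested on simulated data. Python 3.11.15, numpy 2.4.6, pandas 2.3.3, scipy 1.17.1, pysam 0.24.0 and matplotlib 3.10.9 were used.

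The genes and lists were chosen with earlier results of these data known. Genes were named if they belonged to a list of secreted factors and receptors, were called in at least 2 libraries of 1 group and none of the other, were called in all 6 libraries, had a promoter peak in at least 2, had a peak in the best 10% of any list, or had at least 5 regions. Other genes were named after their values were seen. Alternatives were equal list lengths, a higher score, 1 start site per gene, a limit of 50 kb, stricter overlap and calls, a promoter of 3000 bp, a motif window of 50 bp or the whole region, a replicate block, and leaving out each library. Inputs and the RNA-seq were not analysed here.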

Additional observations from a re-analysis of the deposited data

How the results depend on the processing

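With peaks at or above the median score of their list, 3 genes were called in all 6 libraries (against 2.75% of all genes). Peak numbers were then higher in every senescent library at 4 genes (against 2.18% of all genes) and lower at 1 (against 0.576%). Regions numbered 4 senescent-only and 3 control-only (against 9.36% and 5.20% of all regions). With equal list lengths there were 3 control-only genes (against 2.07% of all genes). Peak numbers were higher at 3 genes and lower at 4 (against 1.34% and 0.992%). Regions numbered 3 senescent-only and 9 control-only (against 12.5% and 11.2% of all regions). Requiring 3 of 3 against 0 of 3 libraries left 0 control-only genes (against 0.499% of all genes). It left 6 senescent-only and 3 control-only regions (against 3.73% and 1.58% of all regions). The difference in promoter share fell from 13.3 to 6.65 percentage points with promoters of 3000 bp. Within 50 bp of the midpoint the E-box was found in 5.88% of regions and the AP-1 motif in 8.82%, and anywhere in the region in 15.7% and 23.5%. Leaving out 1 library at a time gave 3 to 9 senescent-only genes (against 1.63% to 7.85% of all genes) and 0 to 2 control-only genes (against 0.521% to 2.99%). Regions numbered 6 to 14 senescent-only (against 5.34% to 21.4% of all regions) and 3 to 8 control-only (against 2.37% to 9.80%). Genes called in all libraries numbered 6 to 7 (against 5.15% to 6.26% of all genes). Peak numbers were higher at 8 to 10 genes (against 4.07% to 5.89% of all genes) and lower at 4 to 6 (against 1.59% to 4.53%). The 6 genes and the 4.53% both came without control replicate 3. The senescent minus control difference was 2.48 to 9.09 points in the share of genes called, and -0.195 to 2.28 points relative to all genes. In promoter share it was 10.1 to 15.7 points. Without senescent replicate 2 there were 8 control-only and 7 senescent-only regions (against 9.80% and 5.34% of all regions). Without senescent replicate 3 there were 6 of each (against 6.46% and 5.97% of all regions). Over all regions the control-only ones were thus the more numerous in both settings. Deviations of same-numbered libraries from their group mean correlated at 0.110, -0.105 and -0.0954. The highest correlation was between control replicate 3 and senescent replicate 2 (0.272), the longest list of each group. Such weak values cannot tell whether same-numbered libraries shared a mouse or culture. With a replicate block 8 genes were higher and 4 lower, as without it. The depth behind the lists is unknown, so a peak not called may be one not detectable. The causes were not tested.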
